A study of Mus musculus with 29 samples.

Results

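The glutathione, peroxiredoxin and superoxide dismutase genes are the enzymes that remove superoxide, peroxides and electrophiles from the cell. They were chosen by symbol alone: glutathione transferases (Gst, Mgst), glutathione peroxidases (Gpx), peroxiredoxins (Prdx), superoxide dismutases (Sod1 to Sod3), thioredoxins and their reductases (Txn, Txnrd), the enzymes of glutathione synthesis and recycling (Gclc, Gclm, Gss, Gsr), catalase (Cat), the quinone reductase Nqo1 and the heme oxygenases Hmox1 and Hmox2. Of the 22537 gene symbols in the count table, 56 were such genes, including the pseudogene Gpx2-ps1. Whole tibialis anterior (TA), a fast muscle of the lower leg, gave the poly-A RNA that was sequenced from untreated male C57BL/6 mice, an inbred strain, at 6 months (6m, adult), 24 months (24m) and 28 months or older (28m). The first run held 7 mice at 24m and 7 at 6m, and the second run held 8 mice at 28m, with a fresh library from each 6m mouse of the first run, so that 29 libraries were made from 22 mice. The numbers of old mice follow the labels of the single samples, since the design text gives 8 at 24m and 7 at 28m. The comparisons ask how the levels of these genes differed with age, with 28m set against the second-run libraries at 6m and 24m against the first-run ones.

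Superoxide is converted to hydrogen peroxide by superoxide dismutases, of which SOD1 is mainly cytosolic, SOD2 lies in the mitochondrial matrix and SOD3 is extracellular. Catalase, glutathione peroxidases and peroxiredoxins remove the peroxide. For the glutathione peroxidases and peroxiredoxins the electrons come from glutathione or from thioredoxin. Glutathione is made by glutamate-cysteine ligase (catalytic subunit GCLC, modifier subunit GCLM) and glutathione synthetase (GSS) and is regenerated by glutathione reductase (GSR). Thioredoxin is regenerated by thioredoxin reductase. Glutathione transferases attach glutathione to reactive lipid products and foreign compounds. Many of these genes carry an antioxidant response element, at which the transcription factor NRF2 (Nfe2l2) acts and which BACH1 represses. Contracting muscle fibres produce superoxide in their mitochondria and membranes, and the fibres express most of these enzymes.

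Values are given as CPM, a gene's counts relative to the library's total after edgeR's TMM scaling, with a fold change on the log2 scale, its standard error (SE) and a p adjusted over all genes tested by edgeR's quasi-likelihood test. A gene was called higher or lower when that adjusted p was under 0.05. Total counts per library lay between 17633475 and 33499162, and the 56 genes held between 0.25% and 0.529% of them. Fast fibre markers summed to between 112345 and 193088 CPM and slow fibre markers to between 79.0 and 498 CPM in the 29 libraries. A pair of libraries stood apart. In 6 of the 7 mice at 6m the SD of the log2 difference between the 2 libraries of a mouse lay between 0.237 and 0.282 over 13455 genes, and in mouse 4 it was 0.617. The library of 24m mouse 4 was the other one, with 877 CPM of Sod1 against at most 131 in the other mice at 24m.

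Expression also moved with gene length. The Spearman correlation across genes between a library's deviation from the mean and exonic length lay between 0.335 and 0.452 in the 7 libraries of the second run at 6m. At 28m it lay between -0.515 and -0.0851 in 6 mice and was positive in mice 4 and 8 (0.167 and 0.273). It was -0.471 in the first library of 6m mouse 4 and -0.394 in 24m mouse 4. The 44 genes tested are short, with a median exonic length of 2064.5 bases against 4491 over all genes tested. Each result is therefore followed where it matters by the value after removal of a trend with exonic length and GC content from every library. Exonic length covers the exons of all transcripts of a gene and can exceed that of a single transcript. The 2 lengths were 3970 and 641 bases for Sod1, 4208 and 2049 for Txn2 and 5915 and 1963 for Gss. For Prdx3 and Gpx7 they were the same, 1478 and 1289 bases. A trend with transcript length was not tested.

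At 28m, 30 of the 44 genes tested were higher than at 6m and 2 were lower (72.7% called), against 47.3% of all 12994 genes tested, of which 24.3% were higher and 22.9% lower. The median log2 fold change of the 44 genes was 0.46, and that of all genes tested was 0.01. Of the genes called, the transferases Gstm7, Gsta3 and Gstm2 rose by the most, and Gsta4, Gpx1, Txn1, Gpx4, Prdx4, Gstt2, Sod1 and Prdx2 followed. The 2 lower genes were Gclc, the catalytic subunit of the enzyme that limits the rate of glutathione synthesis, and Sod2, the mitochondrial superoxide dismutase. With the length and GC trend removed, 18 genes were called higher and 1 lower (43.2% called), with a median of 0.22, against 37.2% of all genes tested in that fit. Of the 30 genes, 16 were still called higher, and Gclc was still called lower. What lies behind the trend was not tested.

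**Figure D1:**
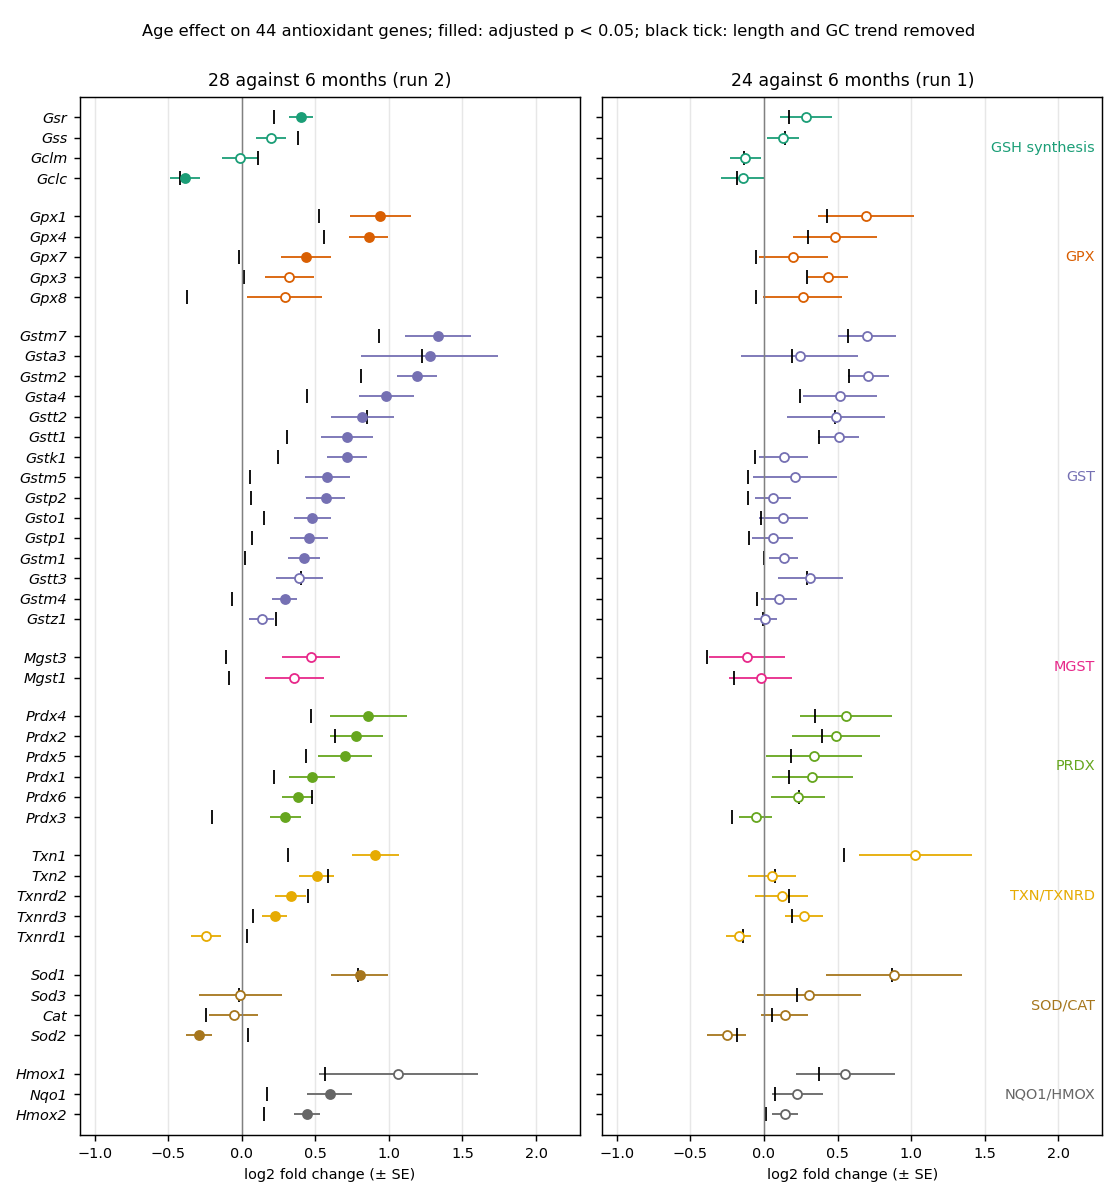
Log2 fold change with its SE for the 44 genes tested, at 28m (left) and 24m (right), grouped and coloured by role; filled points have an adjusted p under 0.05 and black ticks mark the value with the length and GC trend removed. At 28m 30 genes are filled to the right of 0 and Gclc and Sod2 to the left, while no point is filled at 24m.

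The other 12 genes had too few counts for the test and stayed at or under 1.06 CPM in every library. Gpx2, a glutathione peroxidase of gut epithelium, and Gpx6 had no count in any of the 29 libraries, which allows up to between 0.0947 and 0.169 CPM in a library at 3 counts and covers counting error only. Gpx5, Gsta1, Gsta2, Gstm3, Gstt4, Gsto2, Prdx6b and Gpx2-ps1 lay at or under 0.629 CPM. Gstm6 lay at 0.0835 to 0.232 CPM (median 0.153) at 6m and at 0.196 to 1.06 CPM (median 0.355) at 28m, and Mgst2 at 0.0955 to 0.256 CPM (median 0.169) and at 0.085 to 0.769 CPM (median 0.389). For each of them 6 of 8 mice at 28m exceeded every mouse at 6m, and neither was tested.

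Per kilobase of transcript, the highest levels among the 44 genes in the second-run libraries at 6m were those of Sod1 (170.03 ± 8.97 CPM per kilobase, SD, n = 7) and Gpx4 (157.8 ± 9.87). Mgst3, Prdx3 and Gpx3 followed at 140.4 ± 12.1, 131 ± 7.68 and 109.99 ± 9.75 CPM per kilobase. The SDs of neighbours in this order overlapped except between Prdx3 and Gpx3. At 28m the first 5 genes kept this order, with Sod1 at 303 ± 119 and Gpx4 at 293 ± 72.1 CPM per kilobase (SD, n = 8). Sod2 stood at rank 10 of the 44 genes at 6m and at rank 19 at 28m, with 59.4 ± 3.86 and 49.6 ± 7.21 CPM per kilobase.

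The 8 sequences are shown because each promoter holds the core of the antioxidant response element, while the genes behind them differed in their results. The core TGACNNNGC was searched on both strands from 250 bases before to 50 bases after the start of each gene, and no other motif was searched. The promoters are those of RefSeq on GRCm38.p6, in which 47 of the 56 genes had an entry with 63 promoters. Capitals mark the core, and each sequence reads 5′ to 3′ on the strand that holds it.
Gclm: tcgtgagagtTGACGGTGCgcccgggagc
Gsta3: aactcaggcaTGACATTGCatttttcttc
Gstm5: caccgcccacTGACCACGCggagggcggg
Gstm7: tctgaagaccTGACAAAGCgaagccaatc
Mgst1: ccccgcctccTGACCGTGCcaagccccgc
Prdx1: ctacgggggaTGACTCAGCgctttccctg
Sod1: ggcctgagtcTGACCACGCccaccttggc
Txnrd1: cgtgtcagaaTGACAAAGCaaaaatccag
The core was present in 8 of the 63 promoters (12.7%), and in 4071 of all 32851 promoters (12.4%). Counted by gene it was present in 17% of the 47 genes and in 17.3% of the genes tested at 28m. The windows lie on the plus strand for Gsta3 (chr1:21240454-21240482) and Gstm5 (chr3:107895802-107895830) and on the minus strand for Gclm (chr3:122245413-122245441), Gstm7 (chr3:107931725-107931753), Mgst1 (chr6:138140461-138140489), Prdx1 (chr4:116685456-116685484), Sod1 (chr16:90220696-90220724) and Txnrd1 (chr10:82859104-82859132). Those of Gstm7, Mgst1 and Txnrd1 lie by starts inside the annotated gene. Of these 8 genes, Gsta3, Gstm5, Gstm7, Prdx1 and Sod1 were higher at 28m, and Gclm (-0.01 ± 0.12), Mgst1 (0.36 ± 0.20) and Txnrd1 (-0.24 ± 0.10) were not called.

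Of the 4 genes of glutathione synthesis and recycling, 1 was higher at 28m, 1 lower and 2 not called, shares near those of all genes tested (24.3% higher and 22.9% lower). Gclc lay at 16.6 to 21.4 CPM (median 18.6) at 6m and at 11.0 to 18.2 (median 14.2) at 28m. Mice 4 and 8 at 28m lay within the range at 6m, and the other 6 of 8 lay below it. Its log2 fold change was -0.39 ± 0.10 (adjusted p = 0.00732), and -0.42 with the trend removed (adjusted p = 0.00822). Gclm, the modifier subunit of the same enzyme, lay at 12.4 to 18.1 CPM (median 14.9) at 6m and at 11.4 to 18.3 (median 14.8) at 28m. The groups overlapped almost fully, and the change was -0.01 ± 0.12 (adjusted p = 0.927). The ratio of Gclc to Gclm counts in a library lay between 1.04 and 1.504 at 6m (median 1.18) and from 0.695 to 1.11 at 28m (median 0.970). In the first run this ratio lay between 0.912 and 1.30 at 6m and from 0.771 to 1.26 at 24m.

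Gsr, which regenerates reduced glutathione with NADPH, lay at 25.6 to 31.002 CPM (median 30.1) at 6m and at 31.7 to 47.6 (median 39.3) at 28m. All 8 mice at 28m lay above all 7 at 6m. The change was 0.40 ± 0.08 (adjusted p = 0.00162), and it kept an adjusted p of 0.0364 with the trend removed (0.22). Gss, the second enzyme of synthesis, had a change of 0.20 ± 0.10 (adjusted p = 0.115), which passed the test only with the trend removed (0.38, adjusted p = 0.00835). Parts of the exons of Gss and Gclm overlap other genes, and the strand setting of the counting is not stated, so their counts may include reads of those genes.

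Of the glutathione peroxidases tested, 3 of 5 were higher at 28m and none was lower, and 2 were higher with the trend removed. Gpx1, a peroxidase of cytosol and mitochondria, lay at 35.7 to 53.0 CPM (median 39.0) at 6m and at 46.2 to 139 (median 76.5) at 28m. Gpx1 in mice 4 and 8 at 28m overlapped the highest mouse at 6m, and the other 6 lay above it. The change was 0.94 ± 0.21 (adjusted p = 0.00261), and 0.52 with the trend removed (adjusted p = 0.00812). Gpx4, which reduces lipid peroxides within membranes, lay at 137 to 162 CPM (median 153) at 6m and at 190.1 to 395 (median 272) at 28m. All 8 mice at 28m lay above all 7 at 6m, and the lowest was mouse 8. Gpx4 changed by 0.86 ± 0.13 (adjusted p = 0.000411), and by 0.56 with the trend removed (adjusted p = 0.000705). Gpx7, an enzyme of the endoplasmic reticulum, was higher by 0.43 ± 0.17 (adjusted p = 0.0462), which became -0.02 without the trend. Gpx3, the secreted peroxidase, and Gpx8 had changes of 0.32 ± 0.17 and 0.29 ± 0.25 and did not pass the test (adjusted p = 0.121 and 0.349).

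Of 15 glutathione transferases tested besides the microsomal ones, 13 were higher at 28m and none was lower, and the median log2 fold change was 0.58. After removal of the trend 6 were called higher, 5 of them among the 13, with a median of 0.25. The mu class held the largest of these changes, and its genes lie side by side on chromosome 3 from Gstm5 (chr3:107895821-107898686) to Gstm4 (chr3:108040408-108044894) on GRCm38, in the order Gstm5, Gstm7, Gstm6, Gstm3, Gstm2, Gstm1, Gstm4. Within this cluster the changes of the 5 genes tested ranged from 0.29 ± 0.09 to 1.33 ± 0.22. These paralogs are similar in sequence, and reads that map to several of them are not counted, so their levels are uncertain.

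Gstm2 lay at 23.2 to 39.2 CPM (median 30.1) at 6m and at 51.5 to 88.7 (median 65.1) at 28m. All 8 mice at 28m lay above all 7 at 6m. The change was 1.19 ± 0.14 (adjusted p = 8.93e-05), the smallest adjusted p among the 44 genes, and 0.81 with the trend removed (adjusted p = 0.000857). Gstm7 lay at 1.02 to 1.91 CPM (median 1.54) at 6m and at 2.34 to 5.76 (median 3.09) at 28m. Here too the groups did not overlap, at far lower levels than in Gstm2. Gstm7 changed by 1.33 ± 0.22 (adjusted p = 0.000645), and by 0.93 with the trend removed (adjusted p = 0.00328). Gstm5 lay at 38.1 to 49.8 CPM (median 44.5) at 6m and at 45.6 to 99.4 (median 67.8) at 28m. Mice 4, 6 and 8 at 28m lay within the range at 6m, and 5 lay above it. Its change of 0.58 ± 0.15 (adjusted p = 0.00698) became 0.06 without the trend (adjusted p = 0.611). Gstm1, the most abundant gene of the cluster by CPM, and Gstm4 were higher by 0.43 ± 0.11 and 0.29 ± 0.09 (adjusted p = 0.00577 and 0.0125), and without the trend the values were 0.02 and -0.07.

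The alpha class enzymes conjugate products of lipid peroxidation. Gsta4, which acts on 4-hydroxynonenal, lay at 7.68 to 13.3 CPM (median 12.4) at 6m and at 13.9 to 36.0 (median 20.9) at 28m. The lowest mouse at 28m, mouse 4, lay just above the highest at 6m. The change was 0.98 ± 0.18 (adjusted p = 0.0011), and 0.44 with the trend removed (adjusted p = 0.0098). Gsta3 was scarce and lay at 0.294 to 0.734 CPM (median 0.502) at 6m and at 0.17 to 3.60 (median 1.12) at 28m. Mouse 7 was the highest and mouse 6 lay below all mice at 6m, so the groups overlapped, and 5 of 8 lay above the highest mouse at 6m. Gsta3 changed by 1.28 ± 0.46 (adjusted p = 0.0328), and by 1.23 with the trend removed (adjusted p = 0.0506).

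The theta class genes lie on chromosome 10 in the order Gstt3, Gstt1, Gstt4, Gstt2. Gstt1 and Gstt2 were higher at 28m, Gstt4 was not tested, and Gstt3 was not called (0.39 ± 0.16, adjusted p = 0.0535). Gstt2 lay at 2.43 to 6.55 CPM (median 3.74) at 6m and at 4.97 to 10.2 (median 8.46) at 28m. At 28m 6 of 8 mice lay above all mice at 6m, and its change was 0.82 ± 0.21 (adjusted p = 0.00642), or 0.85 with the trend removed (adjusted p = 0.00672). Gstt1 lay at 3.01 to 5.47 CPM (median 4.11) at 6m and at 4.94 to 11.9 (median 6.10) at 28m. Only mouse 8 at 28m lay within the range at 6m, and mouse 7 stood above the rest. Gstt1 changed by 0.72 ± 0.18 (adjusted p = 0.00501), and by 0.31 with the trend removed (adjusted p = 0.0863). Gstk1, the mitochondrial and peroxisomal kappa enzyme, lay at 22.7 to 34.3 CPM (median 29.1) at 6m and at 31.3 to 61.1 (median 50.2) at 28m. Mouse 8 at 28m lay within the range at 6m and the other 7 above it. The change was 0.72 ± 0.14 (adjusted p = 0.00126), and 0.25 with the trend removed (adjusted p = 0.0412).

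Of the other transferases, Gstp2, Gstp1 and Gsto1 were higher by 0.57 ± 0.13, 0.46 ± 0.13 and 0.48 ± 0.12 (adjusted p = 0.00343, 0.0104 and 0.00602). With the trend removed they stood at 0.06, 0.07 and 0.15 and no longer passed the test. Gstp1 and Gstp2 are close copies, so the split of reads between them is uncertain. Gstz1, which also acts in tyrosine breakdown, had a change of 0.14 ± 0.09 (adjusted p = 0.197) and passed the test only with the trend removed (0.23, adjusted p = 0.0416). The microsomal transferases Mgst1 and Mgst3 were not called (adjusted p = 0.152 and 0.058). Mgst3 lay at 139 to 172 CPM (median 154) at 6m and at 116 to 357 (median 218) at 28m, so that its mice at 28m lay on both sides of the range at 6m, 5 above and 2 below.

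All 6 peroxiredoxins tested were higher at 28m, and their median log2 fold change was 0.59. The call held for 3 with the trend removed, and the median was then 0.46. Prdx4, the peroxiredoxin of the endoplasmic reticulum, lay at 2.77 to 4.87 CPM (median 3.88) at 6m and at 3.33 to 14.9 (median 6.46) at 28m. At 28m 5 of 8 mice lay above the range at 6m. The change was 0.86 ± 0.26 (adjusted p = 0.0141), and 0.47 with the trend removed (adjusted p = 0.0731). Prdx2, a cytosolic enzyme, lay at 82.0 to 101 CPM (median 99.3) at 6m and at 96.5 to 269.9 (median 166) at 28m. Mouse 4 at 28m lay within the range at 6m and the other 7 above it. Prdx2 changed by 0.78 ± 0.18 (adjusted p = 0.00338), and by 0.63 with the trend removed (adjusted p = 0.00545). Prdx5, found in mitochondria, peroxisomes and cytosol, lay at 114 to 139 CPM (median 127) at 6m and at 122 to 301 (median 194) at 28m. Mice 4 and 8 at 28m lay within the range at 6m. Its change was 0.70 ± 0.18 (adjusted p = 0.00639), and 0.44 with the trend removed (adjusted p = 0.0259), and 19.1% of its exonic bases overlap Trmt112. Prdx1, Prdx6 and Prdx3 were higher by 0.48 ± 0.16, 0.38 ± 0.11 and 0.30 ± 0.11 (adjusted p = 0.0213, 0.0101 and 0.0305). Without the trend Prdx6 kept its call at 0.48 and Prdx1 lost it (0.22, adjusted p = 0.136), and Prdx3, the most abundant of them by CPM and mitochondrial, stood at -0.21.

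Of the thioredoxins and their reductases, 4 of 5 were higher at 28m, and 3 with the trend removed. Txn1, the cytosolic thioredoxin, lay at 32.6 to 41.6 CPM (median 36.5) at 6m and at 47.9 to 109 (median 59.8) at 28m. All 8 mice at 28m lay above all 7 at 6m, the lowest being mouse 8. The change was 0.91 ± 0.16 (adjusted p = 0.000729), and 0.31 with the trend removed (adjusted p = 0.00812). Txn2 and Txnrd2, the mitochondrial pair, were higher by 0.51 ± 0.12 and 0.33 ± 0.10 (adjusted p = 0.00329 and 0.0156), and by 0.58 and 0.45 with the trend removed. Txnrd3 was higher by 0.22 ± 0.09 (adjusted p = 0.045) and did not keep its call without the trend. Txnrd1, the cytosolic reductase, lay at 102 to 123.3 CPM (median 116) at 6m and at 70.8 to 121 (median 101) at 28m. At 28m 6 of 8 mice lay below all mice at 6m, yet the change of -0.24 ± 0.10 missed the threshold (adjusted p = 0.0555), and it stood at 0.04 without the trend. The ratio of Txn1 to Txnrd1 counts in a library lay between 0.281 and 0.409 at 6m and from 0.396 to 1.154 at 28m. In the first run it lay between 0.313 and 0.532 at 6m and from 0.406 to 2.88 at 24m.

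The superoxide dismutases differed in direction. Sod1 lay at 104 to 117 CPM (median 107) at 6m and at 115 to 314 (median 173) at 28m. At 28m mouse 8 lay within the range at 6m and the other 7 above it, with mice 3, 5 and 7 the highest. The change was 0.80 ± 0.19 (adjusted p = 0.00428), and 0.79 with the trend removed (adjusted p = 0.00514). That trend took Sod1 at its exonic length of 3970 bases, while its transcript has 641, so the correction may be too small. Sod2 lay at 308 to 373 CPM (median 353) at 6m and at 238 to 369 (median 277) at 28m. At 28m 5 of 8 mice lay below all mice at 6m and 3 within their range. Sod2 changed by -0.29 ± 0.09 (adjusted p = 0.016), and by 0.04 with the trend removed (adjusted p = 0.771), so the call ended there. Its exonic length of 10008 bases is the longest of the 44 genes. The ratio of Sod1 to Sod2 counts lay between 0.280 and 0.344 at 6m (median 0.308) and from 0.421 to 1.32 at 28m (median 0.589), without overlap. The first-run libraries of the same mice at 6m reached higher, from 0.270 to 0.525, and those at 24m lay from 0.387 to 1.997. These ratios were not corrected for the length trend. Sod3 and Cat were not called (-0.01 ± 0.28 and -0.06 ± 0.17, adjusted p = 0.981 and 0.796). Cat lay at 82.7 to 109 CPM (median 97.7) at 6m and at 55.5 to 134 (median 93.3) at 28m, with 3 mice at 28m above and 3 below the range at 6m.

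Nqo1, which reduces quinones and is a classic NRF2 target, lay at 15.9 to 20.3 CPM (median 19.4) at 6m and at 14.6 to 36.2 (median 30.4) at 28m. At 28m 7 of 8 mice lay above all mice at 6m and mouse 6 below them. The change was 0.60 ± 0.15 (adjusted p = 0.00608), and 0.17 with the trend removed (adjusted p = 0.491). Hmox2, the constitutive heme oxygenase, was higher by 0.44 ± 0.09 (adjusted p = 0.00125), with all 8 mice above all 7 at 6m, and by 0.15 with the trend removed (adjusted p = 0.0274), but 40.2% of its exonic bases overlap Cdip1 on the other strand. Hmox1, the inducible form, lay at 4.94 to 10.7 CPM (median 5.92) at 6m and at 6.16 to 67.7 (median 6.47) at 28m. Mouse 7 held the highest value at 28m, and the other 7 lay between 6.16 and 8.61 CPM. The change of 1.06 ± 0.54 did not pass the test (adjusted p = 0.113), and it was -0.03 ± 0.17 without mouse 7 (adjusted p = 0.902). Mouse 7 also had the highest sum of macrophage markers at 28m, 733 CPM against 89.6 to 143 in the other 7, and the part of macrophages in the Hmox1 value was not tested.

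**Figure D2:**
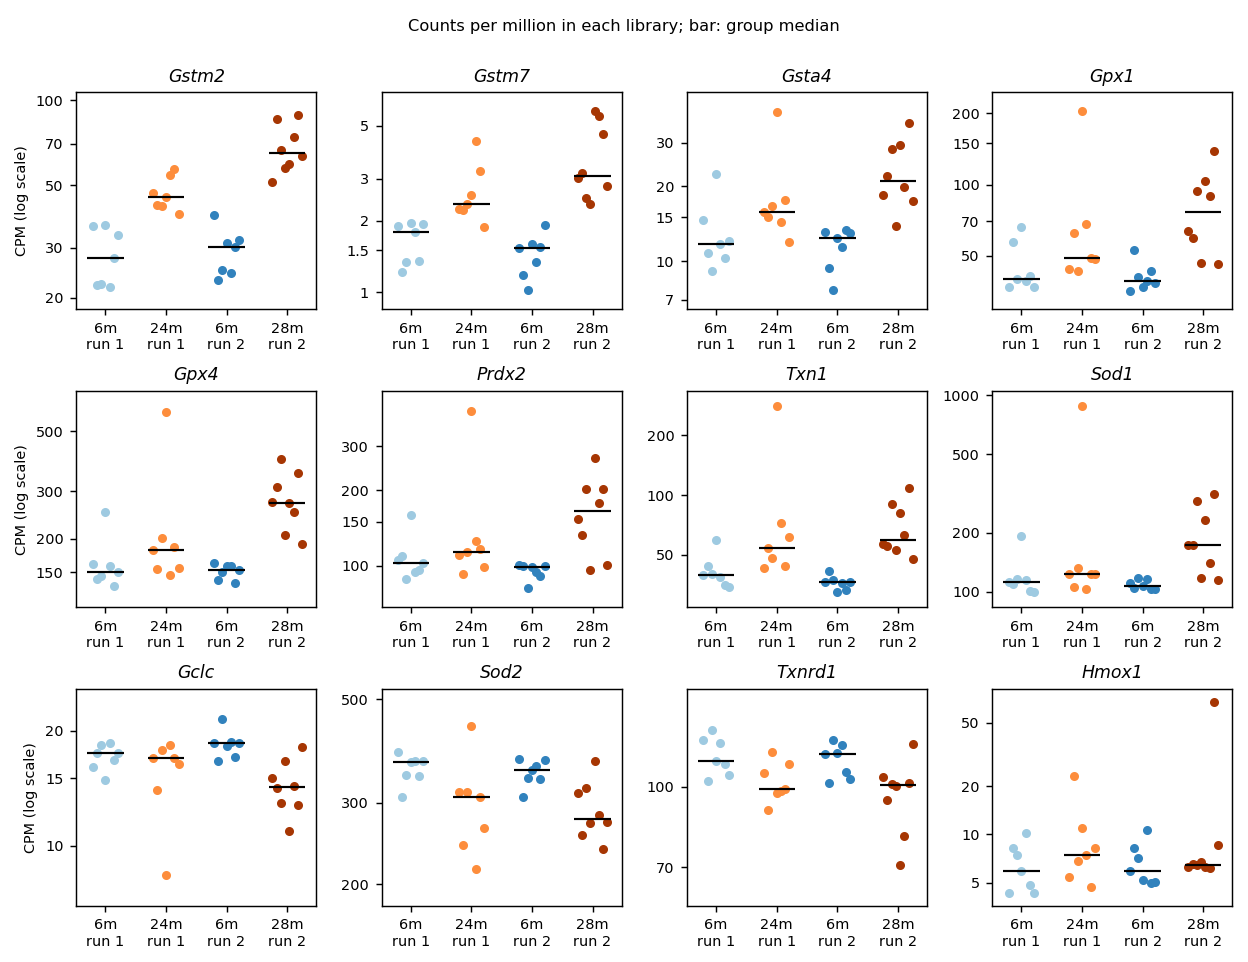
CPM (log scale) of 12 genes in each library of the 4 groups, with a bar at the group median. Gstm2, Gstm7, Gsta4, Gpx4 and Txn1 do not overlap between 28m and 6m of the second run, Gclc and Sod2 lie lower at 28m, Txnrd1 was not called, and Hmox1 stands out in 1 mouse at 28m.

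The mice at 28m differed among themselves. Of the 44 genes, between 16 and 37 lay above all mice at 6m in a given mouse at 28m, and between 1 and 9 below. Mice 4 and 8 had the fewest above (16 and 17), and these were the mice whose correlation with gene length was positive. Adipocyte markers summed to 149 to 177 CPM in mice 4, 6 and 8, the 3 with the fewest genes above, and to 356 to 621 CPM in the other 5. The part of either in the values was not tested. Mice 3, 5 and 7 had the most above (34, 36 and 37), with correlations of -0.508, -0.477 and -0.515. Summed over the 56 genes, the level was 2651 and 2730 CPM in mice 4 and 8 at 28m and up to 4351 CPM in mouse 3, against 2410 to 2674 CPM at 6m. In mouse 4 at 6m, all 30 genes called higher at 28m were higher in its first-run library than in its second, with a median log2 difference of 0.60, whereas in the other 6 mice between 13 and 25 of the 30 were higher with medians from -0.01 to 0.10. Both libraries of mouse 4 came from the same animal at the same age.

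**Figure D3:**
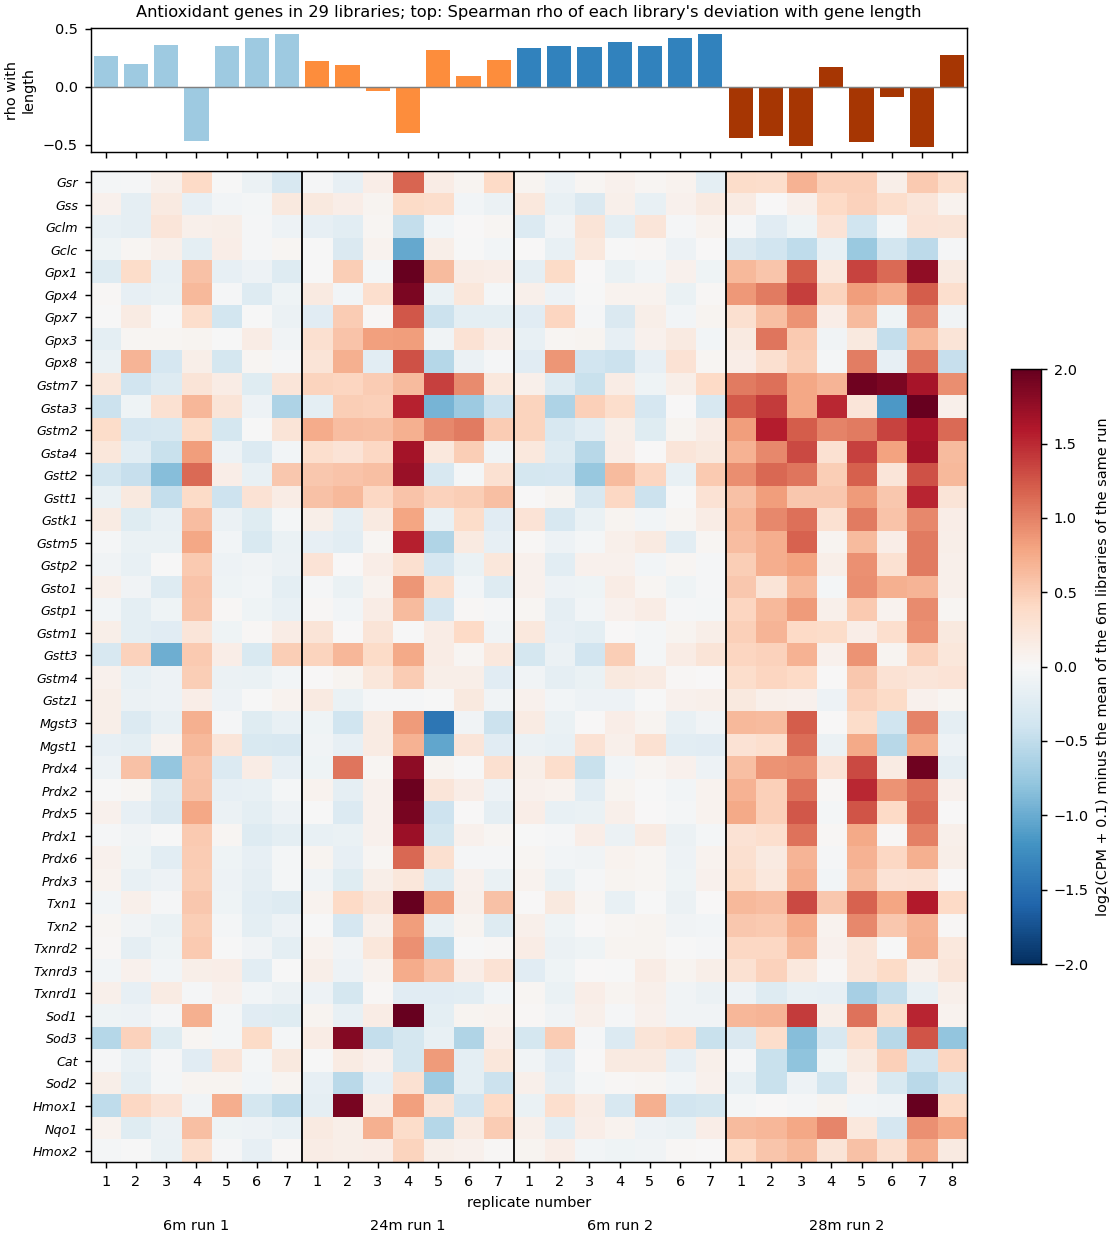
Log2(CPM + 0.1) of the 44 genes in 29 libraries, as the difference from the mean of the 6m libraries of the same run, with the Spearman correlation of each library's deviation with exonic length as bars on top. The second-run libraries at 28m with negative bars, 24m mouse 4 and the first-run library of 6m mouse 4 are red for most genes, and Gclc is blue in most mice at 28m.

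Against the first-run 6m libraries, which came from another preparation of these 7 mice, 15 genes were called higher at 28m and 1 lower, and 23% of all genes tested were called. Without the first-run library of mouse 4, an alternative added after the data were seen, 24 were higher and 2 lower, and 36.9% of all genes were called. Under every other scaling, filter and test tried, with the trend removed, with all 29 libraries in 1 fit, against the first-run 6m libraries and without any mouse in turn, 10 of the 44 genes stayed called higher, against 8.26% of all genes tested at 28m: Gpx1, Gpx4, Gsta4, Gstk1, Gstm2, Gstm7, Hmox2, Prdx2, Txn1 and Txn2.

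**Figure D4:**
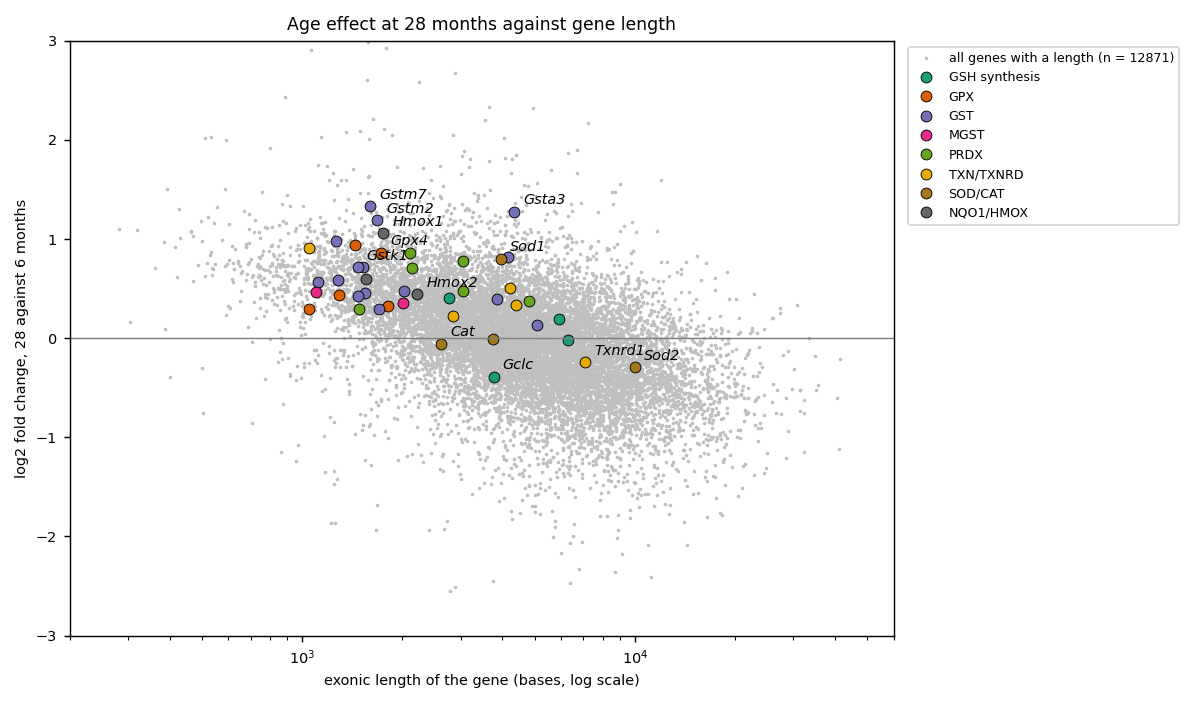
Log2 fold change at 28m against exonic length (log scale) for 12871 genes with a length (grey; 12 lie outside the axes) and for the 44 genes tested (coloured by role). Fold changes fall with length over all genes (Spearman rho -0.539), and most of the 44 genes lie among the short genes. Sod1 and Gsta3 lie above while Gclc lies below genes of like exonic length. The transcripts used for levels per kilobase are shorter for Sod1 and Gsta3, 641 and 1457 bases against exonic lengths of 3970 and 4344.

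At 24m none of the 44 genes was called, against 0.084% of all 13103 genes tested (0.0611% higher and 0.0229% lower). An unadjusted p under 0.05 was found for 7 of them and for 1546 of all genes tested, and DESeq2 called 2 of the 44 and 1.4% of all genes. The median log2 fold change of the 44 genes was 0.23, with 37 above 0 and 7 below, and that of all genes tested was 0.03. Gstm2 came nearest to the threshold. It lay at 21.8 to 36.1 CPM (median 27.7) at 6m in the first run and at 39.6 to 57.1 (median 45.5) at 24m. All 7 mice at 24m lay above all 7 at 6m, and the change was 0.71 ± 0.14 (adjusted p = 0.0805). DESeq2 gave Gstm2 an adjusted p of 0.00137 and Gstt1 one of 0.0287. Gstt1 lay at 2.99 to 5.50 CPM (median 4.68) at 6m and at 5.62 to 6.68 (median 6.29) at 24m, again without overlap, and by edgeR its change was 0.51 ± 0.14 (adjusted p = 0.211). Gstm7 had 6 of 7 mice above all mice at 6m and a change of 0.70 ± 0.20 (adjusted p = 0.226).

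Several other genes had their highest value at 24m in mouse 4. Sod1 lay at 103 to 877 CPM (median 123.1), and only mouse 4 lay above the range at 6m. That range, 99.8 to 192 CPM (median 112), had the outlying first-run library of 6m mouse 4 at its top. Sod1 changed by 0.88 ± 0.46 (adjusted p = 0.456). Txn1, Gpx1 and Prdx2 had changes of 1.03 ± 0.38, 0.69 ± 0.32 and 0.49 ± 0.30 (adjusted p = 0.346, 0.419 and 0.508), with their highest values, 279.9, 204 and 415 CPM, in the same mouse. Txn1 lay above all first-run mice at 6m in 3 of 7 mice at 24m, Gpx1 in 2 and Prdx2 in 1. For Txn1 and Prdx2 the highest first-run library at 6m was again that of 6m mouse 4 (59.7 and 159.9 CPM). Their medians were 39.6 and 103 CPM at 6m and 54.4 and 113 CPM at 24m. Hmox1, with a change of 0.55 ± 0.34 (adjusted p = 0.504), was highest in 24m mouse 2 instead. Gclc was lowest in 24m mouse 4, at 8.36 CPM against at least 14.0 CPM in the other 6 mice. Of the 44 genes, 34 lay above all mice at 6m in 24m mouse 4, against 4 to 10 in the other mice at 24m. These mice at 6m include the first-run library of 6m mouse 4. In it 30 of the 44 genes exceeded the second library of that mouse by over 0.3 on the log2 scale. No counts above the mice at 6m were made without that library. In 24m mouse 4 slow fibre and adipocyte markers summed to 498 and 584 CPM, the highest of the 7 mice, and endothelial markers to 129.6 CPM, the lowest. The part of these in the values was not tested.

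The difference between the 28m and the 24m effect was tested over all 29 libraries, in which none of the 44 genes and 0% of 13455 genes were called. An unadjusted p under 0.05 was found for 9 of the 44 genes and 1611 of all, and DESeq2 called none of the 44. The comparisons share the 6m mice but not their libraries. Without 24m mouse 4, 9 of the 44 genes were called, all with the larger effect at 28m, and 12.3% of all genes were called in either direction. The 9 were Gpx4, Gstk1, Gstm5, Gstp2, Hmox2, Prdx2, Prdx5, Sod1 and Txn2. Their differences on the log2 scale lay between 0.37 ± 0.12 (Hmox2) and 0.90 ± 0.26 (Prdx5), with adjusted p between 0.0389 and 0.0491. With the trend removed as well, where 3.89% of all genes were called, 3 of the 9 kept the call, Gpx4 (0.52 ± 0.15), Sod1 (0.87 ± 0.25) and Txn2 (0.76 ± 0.20), and with the first-run library of 6m mouse 4 also left out and the trend kept, none was called. These last 2 fits were added after the data were seen. The exonic lengths behind the trend exceed the transcripts of Gpx4 (1724 against 959 bases), Sod1 (3970 against 641) and Txn2 (4208 against 2049).

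Between the 2 preparations of the 6m mice, none of the 44 genes and 0% of 12884 genes were called. In this fit, which did not pair the libraries of a mouse, 0 of the 44 and 357 of all had an unadjusted p under 0.05. With the mouse as block, 1052 of all genes had one and 0 were called. The differences of the 44 genes, second run minus first, lay between -0.33 and 0.12 with a median of -0.09.

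Of 67 other redox genes (regulators, thioredoxin and glutaredoxin partners, and enzymes of glutathione, NADPH, iron and heme supply), 64 were tested. At 28m 26 were higher and 5 lower, with a median of 0.25. The share called, 48.4%, was near the 47.3% of all genes tested. With the trend removed 20 were higher and 4 lower, 37.5% against 37.2% of all genes. All 6 genes of iron, heme and metal handling were higher, and 2 with the trend removed. In the other lists of redox genes between 14.3% (sources of superoxide and peroxide) and 50% (NADPH supply) were called higher. The metallothioneins Mt2 and Mt1, which bind zinc and copper, changed by 1.99 ± 0.60 and 1.40 ± 0.44 (adjusted p = 0.0129 and 0.0167), and the ferritin chains Ftl1 and Fth1 by 0.82 ± 0.27 and 0.68 ± 0.14 (adjusted p = 0.0217 and 0.00154). Blvrb, a biliverdin reductase, changed by 0.71 ± 0.27 (adjusted p = 0.0381). Of these 5 genes, only Fth1 kept an adjusted p under 0.05 without the trend, at 0.00188.

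Ccs, the chaperone that loads copper into SOD1, rose with Sod1. It lay at 8.01 to 10.5 CPM (median 9.81) at 6m and at 11.8 to 25.1 (median 17.7) at 28m, without overlap, and changed by 0.83 ± 0.14 (adjusted p = 0.00071), or 0.50 with the trend removed (adjusted p = 0.000713). Cth, which makes cysteine for glutathione, lay at 0.881 to 2.26 CPM (median 1.96) at 6m and at 2.62 to 4.40 (median 3.89) at 28m. It did not overlap either and changed by 1.03 ± 0.19 (adjusted p = 0.00107). Esd, which hydrolyses S-formylglutathione, Glrx3, a glutaredoxin, Cyba, a subunit of the NADPH oxidases, and Maff, a small MAF partner of NRF2, were higher by 0.81 ± 0.15, 0.79 ± 0.23, 1.10 ± 0.38 and 0.66 ± 0.17 (adjusted p = 0.000904, 0.0111, 0.0274 and 0.00554). Cyba alone of these 4 lost its call without the trend (adjusted p = 0.15).

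Of the 9 regulators of the antioxidant response, 3 were higher at 28m (Nfe2l2, Maff and Sqstm1), 3 lower (Bach1, Cul3 and Mafg) and 3 not called, and with the trend removed Mafg lost its call. Sqstm1, Cul3 and Mafg are named after their values were seen. Bach1 lay at 36.5 to 55.7 CPM (median 40.1) at 6m and at 16.5 to 38.5 (median 25.1) at 28m, with only mouse 8 at 28m inside the range at 6m, and changed by -0.77 ± 0.17 (adjusted p = 0.00228), or -0.60 with the trend removed (adjusted p = 0.00423). Nfe2l2, which encodes NRF2, lay at 35.4 to 41.7 CPM (median 37.4) at 6m and at 41.1 to 48.5 (median 45.0) at 28m. Only mouse 1 at 28m lay within the range at 6m, and the change was 0.22 ± 0.06 (adjusted p = 0.00908). Keap1, the adaptor that marks NRF2 for breakdown, was not called (-0.11 ± 0.07, adjusted p = 0.237). At 24m none of the 64 genes was called, with values of -0.29 ± 0.20 for Bach1, 0.17 ± 0.09 for Nfe2l2 and 0.36 ± 0.21 for Ccs, and DESeq2 called none.

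Markers of other cells are given beside the 47.3% of all genes called at 28m. Lower were 5 of 6 endothelial markers, whose sum lay between 190.1 and 294 CPM against 370.2 to 405 at 6m, and 4 of 6 fibroblast markers (322 to 1171 against 546 to 2795 CPM). Higher were 2 of 7 adipocyte markers (149 to 621 against 163 to 197 CPM) and 4 of 7 slow fibre markers (102 to 256 against 79.5 to 128 CPM). Fast fibre markers were split, with 4 of 9 higher and 1 lower, and none of 9 macrophage or 3 erythrocyte markers tested was called. Of the Schwann cell markers 1 of 6 was higher (31.2 to 56.2 against 36.6 to 55.1 CPM), and of the tendon markers 1 of 5 (119 to 399.6 against 209 to 373 CPM). With the trend removed the calls were 4 lower for endothelial, 1 lower for fibroblast, 1 higher for adipocyte, 3 higher for slow fibre, 1 higher for fast fibre, 2 higher for Schwann cell and 1 higher for tendon markers. At 24m none of these markers was called. In whole muscle a smaller number of cells of a type and less RNA per cell cannot be told apart, and the part of cell composition in the values of the 56 genes was not tested.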

How the data were processed

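Counts per gene in 29 libraries were deposited as whole numbers without normalization. Per the labels and the methods, the authors made 75-base single-end poly-A libraries, aligned the reads to mm10 with STAR 2.5.4b, counted uniquely mapped reads per gene, and called genes with DESeq2 1.22.2. The strand setting is not stated in the sources used here. No column was left unmapped. The members, lists and tests were chosen with earlier results of these data known.

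All genes were fitted with edgeR 4.0.16 in R 4.3.3 (filterByExpr, TMM, quasi-likelihood F test, Benjamini-Hochberg adjustment), and SEs were derived from the test. CPM of single mice were scaled over all 29 libraries. Full values are given for the 16 called genes with the largest change and 9 genes named whatever their result (23 in all), and of the other redox genes for the 12 called with the largest change, Nfe2l2 and Keap1. Same-numbered 6m libraries come from the same mouse, and their deviations correlated between 0.218 and 0.814. The length and GC trend was a natural spline of 5 degrees of freedom for each, on exons of GENCODE (GRCm38), where 20202 symbols of the count table matched directly and 1897 as synonyms. Of the lists, Gstp3 and Hbb-bt had no match, and 7 symbols were matched by an older name. Alternatives were DESeq2 1.42.0, limma-voom 3.58.1, other scalings and filters, the other 6m libraries, the trend removed and each mouse left out. Scripts were tested on simulated data. Figures used matplotlib 3.10.9.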

Additional observations from a re-analysis of the deposited data

Results flagged for a closer look

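Single libraries were examined for 23 members and the library totals, in 96 groups of 7 or 8, for a value whose gap to its nearest neighbour exceeded Dixon's 95% limit. Chance alone gives such a value in about 1 in 20 groups, and 26 were found, none of them a library total. The library of 24m mouse 4 held 11 of them, all high: Sod1 at 877 CPM, Gpx4 at 589, Prdx5 at 532, Prdx2 at 415, Txn1 at 279.9, Gpx1 at 204, Gstm5 at 138, Gsr at 71.7, Gsta4 at 39.8, Gstt2 at 15.2 and Gsta3 at 2.03. The first-run library of 6m mouse 4 held 9, also high: Gpx4 at 250.3 CPM, Prdx5 at 244, Sod1 at 192, Prdx2 at 159.9, Gstm5 at 79.8, Txn1 at 59.7, Gstk1 at 45.0, Nqo1 at 29.3 and Gsta4 at 22.4. The second library of that mouse held 107 CPM of Sod1 and 158 of Gpx4, inside the range of the other second-run libraries at 6m, and 32.6 of Txn1, the lowest of them.

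At 28m mouse 7 was high for Hmox1 (67.7 CPM), Gstt1 (11.9 CPM) and Gsta3 (3.60 CPM). At 24m mouse 2 was high for Hmox1 (23.3 CPM) and mouse 5 for Cat (163 CPM). In the second run 6m mouse 3 was high for Gclc (21.4 CPM).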

How the results depend on the processing

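Of the 30 members higher and 2 lower at 28m, 18 and 1 were called with the length and GC trend removed, 15 and 1 against the first-run 6m libraries, and 25 and 1 with all 29 libraries in 1 fit (39.9% of all genes). Leaving out each mouse in turn gave 26 to 33 higher and 2 to 3 lower, with 40.7% to 51.7% of all genes called. DESeq2, limma-voom, other scalings and other filters gave 29 to 34 higher and 2 to 3 lower, with 31.8% (no filter) to 49.6% of all genes called. With the trend removed the direction turned for the called members Gpx7 (-0.017), Gstm4 (-0.065), Prdx3 (-0.21) and Sod2 (0.045) and the called redox gene Sepx1 (-0.061), which all lost their calls, and for the redox gene Msrb2 (-0.43), called only then. It also turned for Gpx8, Mgst1, Mgst3, Txnrd1 and Gclm, called in neither fit. At 24m, where 0 were called, DESeq2 called 2, and the second-run 6m libraries, all 29 libraries in 1 fit and the fit without both first-run libraries numbered 4, added after the data were seen, each called 1, Gstm2 (0.352%, 1.13% and 0.921% of all genes). The difference between the ages gave 0 calls, and 0 to 9 when each mouse was left out in turn, the 9 without 24m mouse 4, where 3 were left with the trend removed too. With the mouse as replicate block, 0 members were called in the difference (limma-voom, which also changes the test) and 0 between the preparations (edgeR). No blocked fit was made without 24m mouse 4. The other redox genes went from 26 to 12 higher against the first-run 6m libraries, where higher calls over all genes went from 24.3% to 12%. They gave 23 to 31 higher and 5 to 7 lower when each mouse was left out, and 1 at 24m with all 29 libraries in 1 fit. Depth limits what can be said of the 12 members not tested, and the cause of these shifts was not tested.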

Other observations

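Hmox1 and Sod3, an extracellular superoxide dismutase, were highest in the same mouse of each old group. At 28m this was mouse 7, with 67.7 CPM of Hmox1 and 21.96 of Sod3, and at 24m mouse 2, with 23.3 and 32.5 CPM. These were also the mice with the highest sums of the 9 macrophage markers in their groups, 733 CPM at 28m and 646 CPM at 24m, against medians of 112 and 157 CPM. The genes and mice were chosen after the values were seen, and the part of macrophages was not tested.

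A different pair of old mice shared another profile of members, likewise noticed in the values. In 28m mouse 6 and 24m mouse 5, Cat was the highest of its group (134 and 163 CPM). In the same mice Mgst3 (116 and 60.2 CPM), Mgst1 (30.8 and 24.5 CPM), Gpx3 (125.3 and 168 CPM), Nqo1 (14.6 and 12.96 CPM) and Gsta3 (0.17 and 0.284 CPM) were the lowest of their groups. Slow fibre markers summed to 256 CPM in 28m mouse 6, the highest at 28m, and to 254 CPM in 24m mouse 5, second to mouse 4 at 24m. Adipocyte markers were the lowest of their groups in both (149 and 128 CPM), and in 24m mouse 5 so were the fast fibre (112345 CPM) and Schwann cell (27.8 CPM) markers. No test was made of these 2 mice.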
